A study of Homo sapiens with 65 samples.

Results

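Cardioids are small heart-like bodies that human pluripotent stem cells form in culture, and those compared here were patterned towards the left ventricle. Cardioids that had been kept in hyaluronidase, an enzyme that cuts hyaluronan, from day 1.5 of differentiation until harvest on day 7.5 were compared with untreated cardioids harvested on day 7.5. The comparison took in every library with those labels, 3 enzyme and 3 untreated libraries, which are 6 of the 65 in the series. Each group had 1 library from each of the lines that the labels name TNNI1, WT and TNNT2, so every enzyme library had an untreated partner of its own line. The labels give iPSC WTC-11, an established human induced pluripotent stem cell line, as the cell line, WT as the genotype and cardiomyocytes as the cell type of all 6. What sets the lines named TNNI1 and TNNT2 apart from WT, and the source and dose of the enzyme, are not given in the sources used here.

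Both groups went through the same media. Mesoderm was induced with FGF2, activin A, BMP4, CHIR99021 (a GSK3 inhibitor that activates WNT signalling) and LY294002 (a PI3K inhibitor). On day 1.5, the day on which the enzyme began, the cells were dissociated and reseeded as aggregates into medium with BMP4, FGF2, insulin, retinoic acid and C59, which blocks WNT secretion. Each library pooled 8 cardioids, so no value below belongs to a single cardioid, and in pooled tissue a smaller number of cells of a type cannot be told apart from less RNA in each cell. The labels speak of at least 3 biological replicates per condition. The p-values of this comparison measure the spread between libraries within a group, which differ by line and pool. That spread was estimated over all 24 libraries of the enzyme arm, which include other days and a later enzyme start, with no pairing by line.

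Hyaluronan is a long unbranched sugar polymer that synthases of the HAS family extrude from the cell surface, HAS2 being the main one in the developing heart. In the embryo it swells the cardiac jelly, the gel-like matrix between the myocardium and the endocardium, together with the proteoglycan versican and link proteins of the HAPLN family that clamp hyaluronan to it. Heart muscle cells of the left ventricle arise from first heart field progenitors marked by TBX5 and HAND1, whereas the second heart field, marked by ISL1, mainly supplies the right ventricle, the outflow tract and part of the atria.

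The 6 libraries held 1120719 to 1567012 counts, within the range of 831062 to 3574843 over the series, and levels are given as CPM, counts scaled to a library total of 1e+06, always in the order TNNI1, WT and TNNT2. The 10 most abundant genes took 12.8% to 15.2% of an untreated library and 9.17% to 10.4% of an enzyme library. Mitochondrially encoded transcripts took 0.902% to 2.39% untreated and 0.426% to 1.11% with the enzyme, and transcripts of ribosomal proteins 4.18% to 5.06% and 4.81% to 4.88%. The part of these differences in the results was not tested. The libraries read the 3′ ends of transcripts, and 169 of the 425 genes called below have annotated exons that overlap another gene. Whether counting used strand is not given in the sources used here, so for such genes, which include HAS2, MYH7, MYOM1, TPM1, CACNA1C, CACNB2, NPPA, CDH2, KRT18, CLDN6, TAGLN, LAMA2, LAMB1, HSPG2, COL4A2, COL18A1, HAND2, TBX5, TYMS, CCNA2, B3GAT2, LHX1, LIMS2, PEG10, PALLD, H3-3B, THBS1, DUSP6 and POPDC2, part of the reads may come from a neighbour.

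With hyaluronidase from day 1.5 a minority of genes had changed by day 7.5. The fallen genes included sarcomere genes, calcium handling genes, type IV collagen, laminins and mitotic genes, and the risen genes included fibronectin, the hyaluronan link protein HAPLN1, the heart progenitor factor ISL1 and the signalling antagonists DUSP6 and SPRY2. In edgeR's quasi-likelihood test with Benjamini-Hochberg adjustment, 425 of 12748 tested genes (3.33%) passed an adjusted p of 0.05 and are called changed. Of these, 180 rose (1.41% of all tested) and 245 fell (1.92%). The median log2 fold change was 1.74 among the risen genes, -1.69 among the fallen genes and 0.02 over all genes tested. An absolute change of 1 or more on the log2 scale was reached by 152 of the 180 and by 208 of the 245. The enzyme library lay on the called side of its untreated partner in all 3 lines for 180 of 180 risen and 243 of 245 fallen genes. The calls were made on these same libraries, so this agreement between lines is no separate support for them. Over all genes tested, the 3 libraries of each group lay fully apart for 2255 (17.7%), with 1375 higher (10.8%) and 880 lower (6.9%) under the enzyme.

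The number of calls, and their split into risen and fallen, moved with the libraries used. Calls numbered 145 without the enzyme TNNI1 library, 192 without the untreated TNNI1 library and 239 without the untreated TNNT2 library. There were 252 without the enzyme WT library and 675 without the untreated WT library, of which 355 rose and 320 fell. The number was 713 with no filter on low counts, 646 with DESeq2 and 173 with only these 6 libraries in the fit. When libraries were scaled by their totals alone, a setting added after the data were seen, the median of all genes shifted to 0.13 and the split became 261 risen and 202 fallen, and with RLE size factors it was 153 and 273. No called gene had the other sign in any of the 12 alternatives, and 88 of the 425 were called in all 12. The groups lay fully apart for 174 of the 180 risen and 237 of the 245 fallen genes, so their signs could hardly change.

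**Figure D1:**
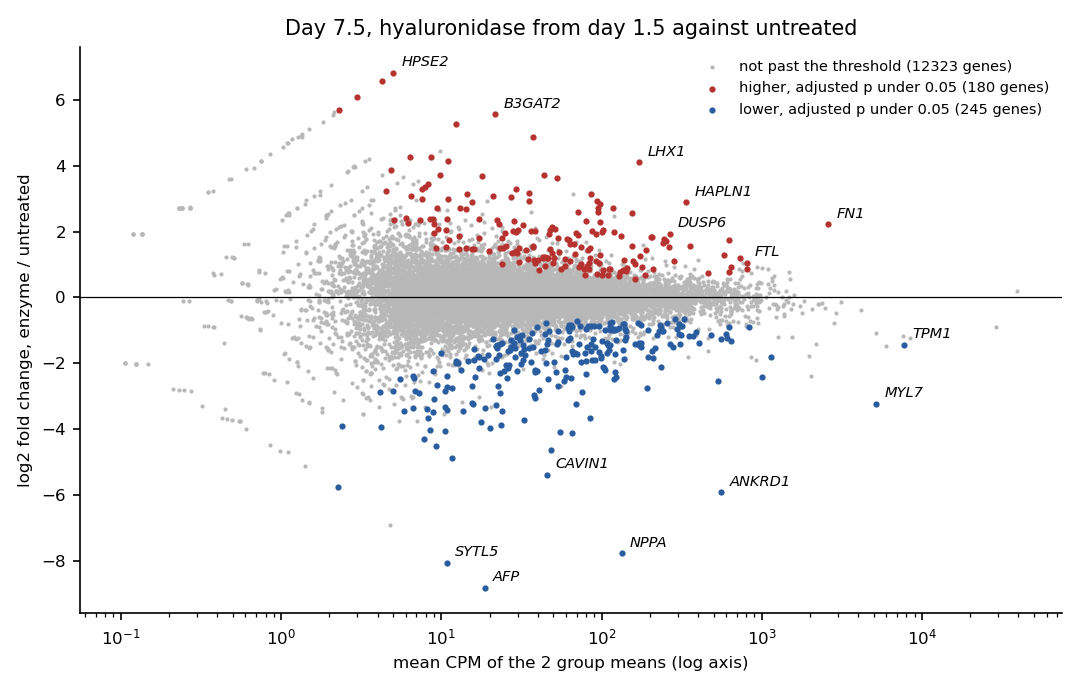
Log2 fold change of each tested gene at day 7.5 (enzyme over untreated, n = 3 libraries each) against its mean CPM on a log axis, with the 180 risen genes in red, the 245 fallen genes in blue and the other 12323 in grey. FN1 and HAPLN1 stand out among abundant risen genes, and MYL7, TPM1 and ANKRD1 among abundant fallen genes.

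HAS2, the hyaluronan synthase whose product the enzyme digests, was not among the called genes. It stood at 339, 251 and 269 CPM untreated and at 507, 406 and 483 CPM with the enzyme. All 3 enzyme libraries lay above all 3 untreated ones, and the difference did not pass the test (log2 fold change 0.59, SE 0.29, adjusted p = 0.306).

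The called genes were read by 14 lists of pathways and 12 lists of cell type markers, 405 genes in all, and no list received a test of its own. Each list is described by how many of its tested members rose or fell and by its median, beside 1.41% risen, 1.92% fallen and a median of 0.02 over all genes tested.

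**Figure D2:**
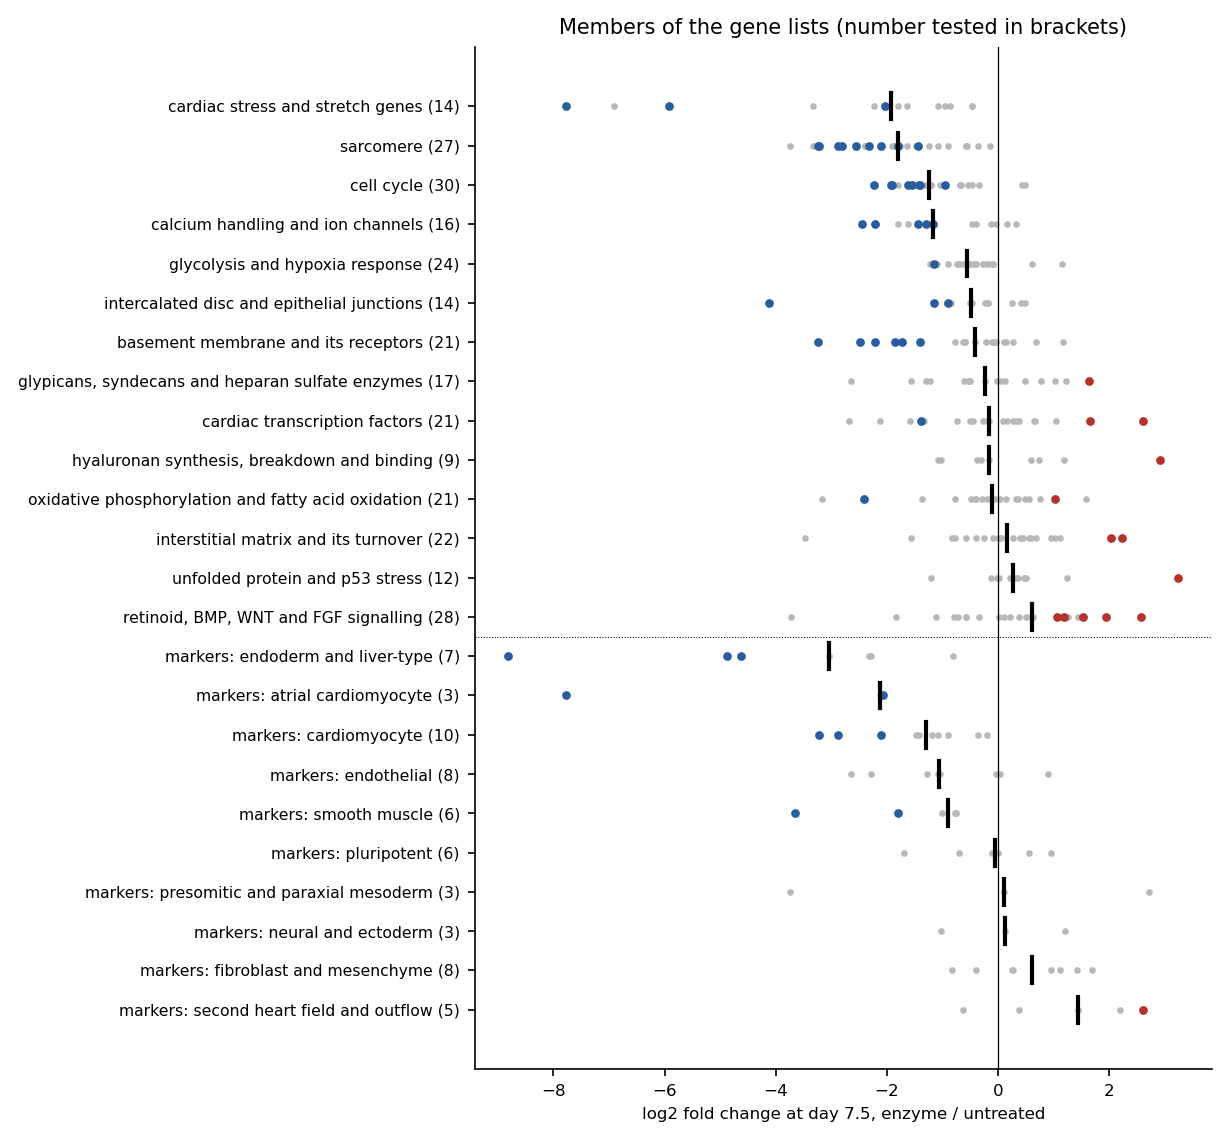
Log2 fold change at day 7.5 (enzyme over untreated) of every tested member of each list, pathway lists above the dotted line and cell type markers below it, with called risen members in red, called fallen members in blue, the others in grey and the list's median as a bar. Medians run from -1.92 for stress and stretch genes to 0.61 for the signalling genes among the pathways, and from -3.04 for endoderm and liver-type markers to 1.43 for second heart field markers.

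Genes of the sarcomere, the contractile unit of heart muscle, were lower throughout with the enzyme. Of the 28 genes on the list 27 passed the filter on low counts, and all 27 had a negative log2 fold change, with a median of -1.80. Calls were made for 9, all lower: MYH7, MYL7, TNNC1, TPM1, ACTN2, MYOM1, TCAP, MYOZ2 and LMOD2. For 20 of the 27 the enzyme libraries lay fully below the untreated ones. Summed over the list, sarcomere transcripts took 86636 to 100864 CPM untreated and 41356 to 46879 CPM with the enzyme.

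MYL7, the myosin regulatory light chain of atrial and embryonic ventricular muscle, was counted at 6648, 8168 and 13105 CPM untreated and at 639.8, 810.4 and 1784 CPM with the enzyme. The highest enzyme library, TNNT2, lay far below the lowest untreated library, and MYL7 fell by 3.22 on the log2 scale (SE 0.70, adjusted p = 0.014). ACTN2, the actinin that cross-links actin at the Z-disc, stood at 294, 382 and 450.3 CPM against 110.0, 78.4 and 95.5 CPM. Its groups did not overlap, and the enzyme libraries lay closer together than the untreated ones as ACTN2 fell by 2.11 on the log2 scale (SE 0.39, adjusted p = 0.00453). MYH7, the slow myosin heavy chain of the ventricle, was at 123, 85.5 and 189 CPM and at 18.7, 6.47 and 32.8 CPM with the enzyme. The enzyme WT library was the lowest of all 6 and the groups were apart, and MYH7 fell by 2.89 on the log2 scale (SE 0.52, adjusted p = 0.00403).

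TPM1, the tropomyosin that gates myosin's access to actin and the most abundant of all called genes, was at 9880.3, 10006 and 13186 CPM and at 3828, 3659 and 5771 CPM. It was lower in all 3 enzyme libraries and fell by 1.43 on the log2 scale (SE 0.39, adjusted p = 0.046). TNNC1, the calcium sensor of the troponin complex, fell by 2.55 (adjusted p = 0.016) on the log2 scale, and TCAP, which caps titin at the Z-disc, fell by 2.33 (adjusted p = 0.0405). LMOD2, which nucleates and lengthens thin filaments, fell by 2.81 (adjusted p = 0.00542) from 74.95, 51.1 and 85.3 CPM to 9.78, 10.8 and 11.9 CPM. MYOZ2, a Z-disc protein that binds calcineurin, fell by 3.24 (adjusted p = 0.01), and MYOM1, which links myosin filaments at the M-band, fell by 1.80 (adjusted p = 0.0472). Among members that did not pass, MYL4, the essential light chain of embryonic and atrial muscle, was at 3071, 2673 and 3637 CPM and at 1074, 1192 and 1526 CPM, with the groups apart (log2 fold change -1.42, SE 0.49, adjusted p = 0.129).

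MYL7 and TNNC1 lost their calls without the enzyme TNNI1 or WT or the untreated TNNT2 library (adjusted p up to 0.098), TPM1 without any 1 library (adjusted p up to 0.203), and MYOM1 and TCAP without the enzyme TNNI1 or WT or the untreated TNNI1 or TNNT2 library (adjusted p up to 0.235). MYOZ2 lost its call without the enzyme TNNI1 library (adjusted p = 0.0681). MYH7, ACTN2 and LMOD2 were called without each library in turn. MYOM1 lost the call with only these 6 libraries in the fit (adjusted p = 0.064), TPM1, MYOM1 and TCAP with no filter on low counts (adjusted p up to 0.115), and TPM1 and MYOM1 with library totals alone (adjusted p up to 0.0524). MYH7 had a log2 fold change of -3.54 without the enzyme TNNT2 library and MYL7 -3.81 without the enzyme TNNT2 library. The list kept 3 calls without the enzyme TNNI1 library, 4 without the enzyme WT library and 4 without the untreated TNNT2 library.

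The calcium handling and ion channel list had 16 of 22 members tested, with a median of -1.17. Of these, 5 fell, none rose, and 9 had enzyme libraries fully below the untreated ones. ATP2A2, the pump that returns calcium to the sarcoplasmic reticulum, was at 419, 488 and 516 CPM untreated and at 210.3, 237 and 239 CPM with the enzyme. The spread within each group was small beside the gap between them, and ATP2A2 fell by 1.17 on the log2 scale (SE 0.21, adjusted p = 0.00209). CAMK2D, the calcium/calmodulin-dependent kinase of heart muscle, was at 206, 179 and 199.6 CPM and at 82.3, 88.4 and 85.04 CPM. It fell by 1.31 on the log2 scale (SE 0.24, adjusted p = 0.00209), again with no overlap.

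The genes of the pore and of the beta subunit of the L-type calcium channel both fell. CACNA1C, the pore, was at 146, 184 and 140.2 CPM and at 46.5, 73.3 and 67.6 CPM, and CACNA1C fell by 1.44 (adjusted p = 0.0121) on the log2 scale. CACNB2, the beta subunit that brings the pore to the membrane, was at 108, 90.6 and 89.8 CPM and at 10.6, 29.5 and 26.5 CPM, and fell by 2.21 (adjusted p = 0.00371), with the enzyme TNNI1 library lowest. POPDC2, a cyclic AMP-binding membrane protein of pacemaker and working muscle, was at 72.3, 136 and 114 CPM and at 18.7, 18.7 and 26.5 CPM and fell by 2.44 (adjusted p = 0.0142). CACNA1C lost its call without the enzyme TNNI1 library (adjusted p = 0.0934) and POPDC2 without the enzyme TNNI1 or WT library (adjusted p up to 0.0872). ATP2A2, CAMK2D and CACNB2 were called without each library in turn. The list kept 3 of its 5 calls without the enzyme TNNI1 library.

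All 14 tested genes of the stress and stretch list, of 17 on it, had negative log2 fold changes, with a median of -1.92, the lowest of the pathway lists. The calls were ANKRD1, NPPA and AMOTL2, all lower, and none rose. ANKRD1, an ankyrin repeat protein of the sarcomere and nucleus that responds to stretch and is a target of the co-activator YAP, was at 369, 1630.5 and 1283 CPM untreated and at 40.8, 13.7 and 5.58 CPM with the enzyme. The untreated TNNI1 library was well below the other two untreated ones, yet above every enzyme library, and ANKRD1 fell by 5.92 on the log2 scale (SE 1.16, adjusted p = 0.00791). NPPA, the atrial natriuretic peptide, was at 327, 72.1 and 399 CPM and at 2.45, 0.719 and 0.697 CPM. The untreated WT library was the lowest of its group and still far above all 3 enzyme libraries, and NPPA fell by 7.77 on the log2 scale (SE 1.73, adjusted p = 0.0215), from 1018 counts over the 3 untreated libraries to 5 over the 3 enzyme libraries.

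AMOTL2, an angiomotin that holds YAP in the cytoplasm and is itself induced by YAP, was at 29.4, 47.2 and 49.7 CPM and at 10.6, 14.4 and 8.36 CPM. Its groups did not overlap, and AMOTL2 fell by 2.04 on the log2 scale (SE 0.40, adjusted p = 0.00453). XIRP1, an actin-binding protein of the intercalated disc, was at 565, 458 and 563 CPM and at 185, 117 and 188 CPM, with groups apart, and did not pass (log2 fold change -1.81, SE 0.53, adjusted p = 0.073), whereas with the line as a block its adjusted p was 0.0472. ANKRD1 lost its call without the enzyme WT library (adjusted p = 0.0519) and NPPA without any 1 library but the untreated WT one (adjusted p up to 0.107). AMOTL2 was called without each library in turn. ANKRD1 had a log2 fold change of -6.93 without the enzyme TNNI1 library and NPPA -8.50 without the enzyme TNNI1 library. The list's calls numbered 1 without the enzyme WT library, 2 without the enzyme TNNI1, enzyme TNNT2 or untreated TNNT2 library, and 6 with the line as a block.

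The promoters of ANKRD1 and MYL7 are shown because these genes had some of the largest falls among abundant genes and because motifs of muscle and stretch-responsive transcription lie in them. Each run is the 250 bases upstream of the RefSeq transcription start (GRCh38.p14), 5′ to 3′ on the gene's own strand, chr10:90921088-90921337 (minus strand) for ANKRD1 and chr7:44141333-44141582 (minus strand) for MYL7. Capitals mark CATTCC, the core bound by TEAD factors, the partners of YAP, found on either strand (GGAATG when it lies on the other), and in MYL7 also the CArG box, bound by serum response factor.
ANKRD1: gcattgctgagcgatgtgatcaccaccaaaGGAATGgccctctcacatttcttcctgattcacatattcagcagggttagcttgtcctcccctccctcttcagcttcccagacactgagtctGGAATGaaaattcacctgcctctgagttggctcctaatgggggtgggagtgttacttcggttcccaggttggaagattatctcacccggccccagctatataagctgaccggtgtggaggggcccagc
MYL7: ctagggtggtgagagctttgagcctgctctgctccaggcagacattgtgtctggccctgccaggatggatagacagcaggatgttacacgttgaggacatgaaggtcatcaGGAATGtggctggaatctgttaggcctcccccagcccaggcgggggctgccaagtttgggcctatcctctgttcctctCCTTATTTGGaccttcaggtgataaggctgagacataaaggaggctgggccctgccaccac
The ANKRD1 window held CATTCC at 2 places, which end 215 and 123 bases before the start, and no CArG box. The MYL7 window held 1 CATTCC, which ends 134 bases before the start, and 1 CArG box, which ends 52 bases before it, with no overlap between them. Windows without these letters occurred among the fallen stress genes as well: that of NPPA held neither motif, and of the AMOTL2 windows, at separate RefSeq starts, 1 held a CATTCC that ends 64 bases before the start and the other held neither.

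Over all 35116 upstream windows of RefSeq starts, CATTCC on either strand was present in 11.9% and the CArG box in 1.16%. Of the 12729 tested genes with a symbol, 9758 matched a window, and of these 13.1% held CATTCC and 1.66% a CArG box. Among the fallen genes, 192 of 245 matched a window, 37 of them (19.3%) held CATTCC and 8 (4.17%) held a CArG box. Those 8 were AKAP12, DMD, DSE, FBXL22, H2AC20, MYL7, MYOM1 and SSPN, of which DMD and SSPN code for dystrophin and its partner sarcospan. Among the risen genes, 136 of 180 matched, 21 (15.4%) held CATTCC and none held a CArG box. A match of letters in these windows is a description and says nothing of binding.

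Among cardiac transcription factors HAND2 and ISL1 rose and TBX5 fell. Of 24 genes 21 were tested, with 2 risen, 1 fallen and a median of -0.17, and 10 log2 fold changes were positive and 11 negative. HAND1, named above beside TBX5 as a first heart field marker, was not among the calls. The sum over the list was 3628 to 4477 CPM untreated and 4627 to 5200 CPM with the enzyme. HAND2, a bHLH factor of the second heart field and right ventricle, was at 86.6, 101 and 142 CPM untreated and at 469, 274 and 379 CPM with the enzyme. Every enzyme library was above every untreated one, and HAND2 rose by 1.65 on the log2 scale (SE 0.38, adjusted p = 0.0184). ISL1, the LIM homeodomain factor that marks second heart field progenitors, was at 2.68, 28.1 and 23.7 CPM and at 182, 54.6 and 137 CPM. The rise was steepest in the TNNI1 line, where ISL1 was nearly absent untreated, and smallest in the WT line, and ISL1 rose by 2.61 on the log2 scale (SE 0.53, adjusted p = 0.00813).

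TBX5, the T-box factor of the first heart field and left ventricle, was at 247, 211 and 286 CPM and at 61.1, 139 and 107 CPM. Its enzyme libraries all lay below the untreated ones, and TBX5 fell by 1.39 on the log2 scale (SE 0.30, adjusted p = 0.00882). HEY2, a Notch-responsive repressor of the compact ventricular wall, was at 149, 38.3 and 57.9 CPM and at 21.2, 17.3 and 21.6 CPM, with groups apart. It missed the threshold narrowly (log2 fold change -2.13, SE 0.59, adjusted p = 0.0503) and had an adjusted p of 0.00709 with the line as a block. Outside the list, LHX1, a LIM homeodomain factor of early mesoderm, was at 27.7, 8.93 and 17.1 CPM and at 362, 149.6 and 468 CPM. Its WT library was the lowest of the enzyme group and lay several-fold above all untreated ones, and LHX1 rose by 4.11 on the log2 scale (SE 0.75, adjusted p = 0.00488). HAND2 lost its call without the enzyme TNNI1 or the untreated TNNI1 or WT library (adjusted p up to 0.1) and ISL1 and TBX5 without the enzyme TNNI1 library (adjusted p up to 0.0717). LHX1 was called without each library in turn. ISL1 and TBX5 lost the call with only these 6 libraries in the fit (adjusted p up to 0.0773), and HAND2 with no filter on low counts (adjusted p = 0.0505). With the line as a block, 3 factors rose and 4 fell.

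Of the second heart field and outflow markers, 5 of 7 were tested and ISL1 was the 1 call, with FGF8 at 0 in all 6 libraries. Of the 5 log2 fold changes 4 were positive and 1 was negative, at -0.64, with a median of 1.43. The sum over the list was 51.2 to 89.3 CPM untreated and 160 to 337 CPM with the enzyme. SEMA3C, a semaphorin of the outflow tract, was at 42.8, 22.3 and 17.1 CPM and at 102, 55.4 and 80.2 CPM, with groups apart, and did not pass (log2 fold change 1.43, SE 0.46, adjusted p = 0.0988).

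In the retinoid, BMP, WNT and FGF signalling list, 28 of 34 genes were tested, 5 rose, none fell and the median was 0.61. The sum over the list was 2175 to 2914 CPM untreated and 3532 to 3624 CPM with the enzyme. Both feedback inhibitors of FGF and ERK signalling among the calls rose in every line. DUSP6, the phosphatase that ERK signalling induces and that inactivates ERK, was at 93.7, 119 and 96.4 CPM untreated and at 588, 399 and 302 CPM with the enzyme. All enzyme libraries were several-fold above all untreated ones, with TNNI1 highest, and DUSP6 rose by 1.94 on the log2 scale (SE 0.29, adjusted p = 0.000314). SPRY2, a Sprouty protein that dampens receptor tyrosine kinase signals, was at 41.05, 44.7 and 23.00 CPM and at 108, 116 and 112 CPM. The enzyme libraries were nearly level with each other, and SPRY2 rose by 1.52 on the log2 scale (SE 0.26, adjusted p = 0.00129).

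BMP4, a ligand of the BMP pathway, was at 13.4, 28.1 and 82.3 CPM and at 283, 99.2 and 419.6 CPM. Its libraries varied widely within each group, without overlap between them, and BMP4 rose by 2.56 on the log2 scale (SE 0.69, adjusted p = 0.0498). ID1, a direct BMP target that blocks bHLH factors, was at 24.1, 40.2 and 14.8 CPM and at 79.9, 73.3 and 43.9 CPM, apart by a small margin, and rose by 1.19 (adjusted p = 0.043) on the log2 scale. WNT5A, a ligand of non-canonical WNT signalling, was at 69.6, 45.9 and 62.3 CPM and at 176, 104 and 119.9 CPM and rose by 1.05 (adjusted p = 0.0105), with all enzyme libraries higher. BMP4 lost its call without the enzyme TNNI1 or TNNT2 or the untreated TNNI1 or WT library (adjusted p up to 0.185), ID1 without the enzyme TNNI1 or WT or the untreated TNNI1 or TNNT2 library (adjusted p up to 0.201), and WNT5A without the enzyme TNNI1 library (adjusted p = 0.102). DUSP6 and SPRY2 were called without each library in turn. BMP4, ID1 and WNT5A lost the call with only these 6 libraries in the fit (adjusted p up to 0.219), BMP4 with no filter on low counts (adjusted p = 0.0879), BMP4 with RLE factors (adjusted p = 0.0537), and BMP4 with the line as a block (adjusted p = 0.0507). BMP4 had a log2 fold change of 3.56 without the untreated TNNT2 library. The list kept 2 calls without the enzyme TNNI1 library, 3 without the untreated TNNI1 library and 2 with only these 6 libraries in the fit.

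The basement membrane is the sheet of type IV collagen, laminin, nidogen and perlecan on which the endocardium and the myocardium rest. Of 22 genes on its list 21 were tested, 6 fell, none rose and the median was -0.42. The 6 code for both chains of the common type IV collagen trimer, a laminin alpha and a laminin beta chain, perlecan (HSPG2) and collagen XVIII (COL18A1). COL4A1 was at 73.2, 58.1 and 102 CPM untreated and at 13.9, 17.3 and 13.9 CPM with the enzyme. The enzyme libraries lay within a narrow band well under all untreated ones, and COL4A1 fell by 2.49 on the log2 scale (SE 0.35, adjusted p = 0.000137). COL4A2, its partner chain, was at 139, 242 and 133 CPM and at 23.6, 49.6 and 46.01 CPM, with the WT library highest in both groups, and COL4A2 fell by 2.21 on the log2 scale (SE 0.34, adjusted p = 0.000389).

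LAMA2, the laminin alpha chain of muscle basement membrane, was at 152, 145 and 74.2 CPM and at 13.04, 21.6 and 7.67 CPM. The TNNT2 library was lowest in both groups, the groups did not overlap, and LAMA2 fell by 3.24 on the log2 scale (SE 0.50, adjusted p = 0.000435). LAMB1, the laminin beta chain of most embryonic laminins, was at 184, 276 and 177 CPM and at 35.9, 94.2 and 59.3 CPM, highest in the WT line both times, and fell by 1.86 on the log2 scale (SE 0.29, adjusted p = 0.000435). HSPG2 was at 216, 114 and 223 CPM and at 30.97, 61.1 and 87.8 CPM and fell by 1.73 (adjusted p = 0.00486), and COL18A1 at 401, 313 and 425 CPM and at 68.5, 217 and 177 CPM and fell by 1.41 (adjusted p = 0.0226), both with groups apart. COL18A1 lost its call without the enzyme TNNI1 or the untreated TNNI1 or TNNT2 library (adjusted p up to 0.107). COL4A1, COL4A2, LAMA2, LAMB1 and HSPG2 were called without each library in turn. HSPG2 and COL18A1 lost the call with only these 6 libraries in the fit (adjusted p up to 0.107).

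COL4A1 and COL4A2 lie head to head on chromosome 13 and are transcribed away from each other, so the 126 bases between their RefSeq starts are shared by both promoters. The run is chr13:110307158-110307283 (GRCh38.p14), 5′ to 3′ on the plus strand, which is the strand of COL4A2, and is shown because both genes fell together.
COL4A1-COL4A2: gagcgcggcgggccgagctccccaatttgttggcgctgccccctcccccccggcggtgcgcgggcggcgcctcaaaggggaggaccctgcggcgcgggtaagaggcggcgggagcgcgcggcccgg
It is 80.2% G or C and holds neither CATTCC nor a CArG box, hence no capitals.

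In the interstitial matrix list fibronectin and thrombospondin rose. Of 24 genes 22 were tested, 2 rose, none fell and the median was 0.16. FN1, fibronectin, the adhesive glycoprotein that binds integrins and guides mesoderm migration, was at 452, 1272 and 850.2 CPM untreated and at 4832, 4501 and 3732 CPM with the enzyme. The lowest enzyme library, TNNT2, lay well above the highest untreated one, WT, and FN1 rose by 2.23 on the log2 scale (SE 0.39, adjusted p = 0.00209). Summed over the list, FN1 included, levels were 2431 to 3976 CPM untreated and 6868 to 7947 CPM with the enzyme. The members did not move together: 13 log2 fold changes were positive and 9 negative, down to -3.48. THBS1, thrombospondin, a matricellular protein, was at 11.6, 14.04 and 14.1 CPM and at 97.8, 28.8 and 50.9 CPM. Its TNNI1 enzyme library was the highest and its groups were apart, and THBS1 rose by 2.03 on the log2 scale (SE 0.50, adjusted p = 0.0251). COL3A1, the fibrillar collagen of stroma, was at 90.1, 285 and 266 CPM and at 214, 677 and 448 CPM, with overlapping groups (log2 fold change 0.94, SE 0.80, adjusted p = 0.605). THBS1 lost its call without the enzyme TNNI1 or the untreated TNNI1 or TNNT2 library (adjusted p up to 0.182). FN1 was called without each library in turn. THBS1 lost the call with only these 6 libraries in the fit (adjusted p = 0.064).

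Among genes of hyaluronan itself, 9 of 21 passed the filter and only HAPLN1 was called. HAS1, SPAM1, LYVE1 and TNFAIP6 were at 0 in all 6 libraries. HAPLN1 (chr5:83637805-83721613, hg38), the link protein that stabilises hyaluronan bound to proteoglycans, was at 74.95, 70.2 and 76.4 CPM untreated and at 766, 558 and 474 CPM with the enzyme. The untreated libraries were nearly level, every enzyme library was several-fold higher, and HAPLN1 rose by 2.90 on the log2 scale (SE 0.25, adjusted p = 2.72e-07), the smallest adjusted p of any gene in the comparison. UGDH, which makes the glucuronic acid precursor of hyaluronan, was at 21.4, 24.9 and 6.68 CPM and at 40.8, 29.5 and 25.8 CPM, apart by a small margin (log2 fold change 0.74, SE 0.34, adjusted p = 0.269). HYAL2, a cellular hyaluronidase anchored at the membrane, was at 8.92, 14.04 and 4.45 CPM and at 37.5, 17.98 and 13.9 CPM, higher in all 3 lines but with the enzyme TNNT2 library just under the untreated WT one (log2 fold change 1.19, SE 0.54, adjusted p = 0.266). HMMR, a hyaluronan-binding protein that also serves the mitotic spindle, was at 31.2, 25.5 and 14.1 CPM and at 13.9, 13.7 and 9.76 CPM (log2 fold change -1.03, SE 0.39, adjusted p = 0.169). HAPLN1 was called without each library in turn.

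Of the glypicans, syndecans and heparan sulfate enzymes, 17 of 20 were tested and 1 rose. GPC3, a glypican that carries heparan sulfate at the cell surface and tunes growth factor signalling, was at 37.5, 34.5 and 21.5 CPM and at 125, 87.01 and 99.7 CPM. Each enzyme library exceeded every untreated one, and GPC3 rose by 1.63 on the log2 scale (SE 0.38, adjusted p = 0.016). GPC1 was at 131, 45.3 and 149 CPM and at 24.5, 53.9 and 71.1 CPM, lower in the TNNI1 and TNNT2 lines and higher in the WT line (log2 fold change -1.23, SE 0.36, adjusted p = 0.0553). GPC3 lost its call without the enzyme TNNI1 or the untreated TNNT2 library (adjusted p up to 0.0888). Outside the list HPSE2, a relative of heparanase that binds heparan sulfate without cutting it, had no count in the untreated libraries and 13.04, 11.5 and 5.58 CPM with the enzyme, at least 13.3-fold higher with a floor of 3 counts over the untreated group (adjusted p = 0.0368). HPSE2 lost its call without any 1 library but the enzyme TNNT2 one (adjusted p up to 0.11).

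Of 17 genes of the intercalated disc and epithelial junctions 14 were tested, 3 fell, none rose and the median was -0.49. CDH2, N-cadherin, which joins cardiomyocytes at the intercalated disc, was at 887, 856 and 1415 CPM untreated and at 661, 529 and 648 CPM with the enzyme, and fell by 0.90 on the log2 scale (SE 0.24, adjusted p = 0.032), with groups apart. CLDN6, a claudin of tight junctions in early epithelia, was at 167, 61.9 and 142 CPM and at 3.26, 10.1 and 9.06 CPM. All enzyme libraries lay several-fold under the lowest untreated one, WT, and CLDN6 fell by 4.13 on the log2 scale (SE 0.68, adjusted p = 0.00145). KRT18, a keratin of simple epithelia and early cardiac mesoderm, was at 174, 339 and 378 CPM and at 129, 139 and 169 CPM, closest to each other in the TNNI1 line, and fell by 1.15 (adjusted p = 0.0146) on the log2 scale. PKP2, a desmosomal plakophilin, was at 112, 140.4 and 99.4 CPM and at 88.02, 78.4 and 40.4 CPM (log2 fold change -0.89, SE 0.27, adjusted p = 0.072), with an adjusted p of 0.0454 with the line as a block. CDH2 and KRT18 lost their calls without the enzyme TNNI1 or WT or the untreated TNNT2 library (adjusted p up to 0.227). CLDN6 was called without each library in turn. CDH2 and KRT18 lost the call with only these 6 libraries in the fit (adjusted p up to 0.149).

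All 30 genes of the cell cycle list were tested, and 8 fell while none rose. The median was -1.24, 28 of 30 log2 fold changes were negative, and 13 genes had enzyme libraries fully below the untreated ones. The summed level was 1772 to 2756 CPM untreated and 788 to 1375 CPM with the enzyme. CENPF, a kinetochore protein made in G2 and mitosis, was at 436, 291 and 223 CPM and at 85.6, 124 and 142 CPM. The untreated TNNI1 library was the highest of the 6 and the enzyme TNNI1 library the lowest, and CENPF fell by 1.54 on the log2 scale (SE 0.33, adjusted p = 0.00888). CENPE, the kinetochore motor, was at 136, 105 and 66.8 CPM and at 40.8, 44.6 and 39.7 CPM, likewise with no overlap, and fell by 1.40 on the log2 scale (SE 0.29, adjusted p = 0.00603).

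Genes of DNA synthesis were among the calls too. TYMS, thymidylate synthase, which makes the thymidine nucleotide, was at 55.3, 47.2 and 48.96 CPM and at 8.97, 20.1 and 13.9 CPM. The untreated libraries were close together and far above the enzyme ones, and TYMS fell by 1.91 on the log2 scale (SE 0.38, adjusted p = 0.00488). MCM3, a subunit of the replicative helicase, was at 120.5, 91.9 and 97.2 CPM and at 53.8, 59.7 and 57.9 CPM and fell by 0.96 on the log2 scale (SE 0.20, adjusted p = 0.00571), with narrow spreads in both groups. MKI67, the proliferation antigen Ki-67, was at 349.8, 172 and 176 CPM and at 59.5, 74.8 and 145 CPM, and fell by 1.42 (adjusted p = 0.0441) on the log2 scale, with the enzyme TNNT2 library nearest to the untreated ones. BUB1, a spindle checkpoint kinase, fell by 1.62 (adjusted p = 0.019), and the cyclins CCNA2 and CCNB2 fell by 1.92 (adjusted p = 0.0131) and fell by 2.23 (adjusted p = 0.0108). CCNB2 was the 1 of the 8 whose groups overlapped.

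CENPF lost its call without the enzyme TNNI1 or the untreated TNNI1 library (adjusted p up to 0.0765), CENPE without the untreated TNNI1 library (adjusted p = 0.0513), and MKI67 without the enzyme TNNI1 or WT or the untreated TNNI1 or TNNT2 library (adjusted p up to 0.246). BUB1 lost its call without the enzyme TNNI1 or TNNT2 or the untreated TNNI1 library (adjusted p up to 0.129), CCNA2 without the enzyme TNNI1 or WT or the untreated TNNI1 library (adjusted p up to 0.0824), and CCNB2 without the enzyme WT or TNNT2 or the untreated TNNI1 library (adjusted p up to 0.0707). TYMS and MCM3 were called without each library in turn. MCM3, MKI67, BUB1, CCNA2 and CCNB2 lost the call with only these 6 libraries in the fit (adjusted p up to 0.216), MKI67 with no filter on low counts (adjusted p = 0.111), and MKI67 with library totals alone (adjusted p = 0.0664). CCNB2 had a log2 fold change of -3.37 without the enzyme TNNI1 library. The list kept 2 calls without the untreated TNNI1 library, 4 without the enzyme TNNI1 library and 3 with only these 6 libraries in the fit, and had 14 with no filter on low counts.

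Few genes of energy metabolism were called. In glycolysis and the hypoxia response 24 of 27 genes were tested and 22 were negative, with a median of -0.55, but the 1 call was PFKP, the platelet-type phosphofructokinase, at 563, 466 and 906 CPM untreated and at 318, 271 and 358 CPM with the enzyme. It was lower in every enzyme library and fell by 1.15 on the log2 scale (SE 0.29, adjusted p = 0.0254). PKM, pyruvate kinase, was at 2507, 890.2 and 2875 CPM and at 1017, 687 and 1239 CPM, with the untreated WT library inside the enzyme range (log2 fold change -1.21, SE 0.38, adjusted p = 0.0918). Of oxidative phosphorylation and fatty acid oxidation, 21 of 25 were tested, with a median of -0.11. CKM, the muscle creatine kinase, fell by 2.40 (adjusted p = 0.0347) on the log2 scale, and ACADVL, which starts the breakdown of very long fatty acids, rose by 1.02 (adjusted p = 0.0282). FABP3, the fatty acid carrier of heart muscle, was at 56.2, 51.1 and 62.3 CPM and at 35.05, 20.9 and 15.3 CPM (log2 fold change -1.38, SE 0.42, adjusted p = 0.069) and had an adjusted p of 0.031 with the line as a block. PFKP lost its call without the enzyme TNNI1 or WT or the untreated TNNT2 library (adjusted p up to 0.178), CKM without any 1 library but the untreated WT one (adjusted p up to 0.176), and ACADVL without the enzyme TNNI1 or WT or the untreated TNNI1 or TNNT2 library (adjusted p up to 0.168). PFKP and ACADVL lost the call with only these 6 libraries in the fit (adjusted p up to 0.255), and CKM with no filter on low counts (adjusted p = 0.0679).

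Of the unfolded protein and p53 list 12 of 17 were tested, the median was 0.27, and the 1 call was the heat shock gene HSPA1B, at 0, 1.91 and 0 CPM untreated and at 17.9, 5.03 and 2.09 CPM with the enzyme. That is a ratio of 10.6-fold (95% counting interval 3.32 to 54.2) over the summed counts, with an adjusted p of 0.0375, and the TNNT2 enzyme library lay barely above the untreated WT one. Reads of HSPA1B can be shared with its near-identical neighbour HSPA1A. HSPA1B lost its call without the enzyme TNNI1 or the untreated TNNI1 or TNNT2 library (adjusted p up to 0.34).

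Markers of the labelled cell type, cardiomyocytes, were read as a list too. All 10 of them also stand on the sarcomere, calcium handling or transcription factor lists above, so their values repeat those results. All 10 cardiomyocyte markers were detected, their sum was 62911 to 74031 CPM untreated and 31293 to 35671 CPM with the enzyme, and all 10 log2 fold changes were negative, with a median of -1.31. The calls were MYH7, MYL7 and ACTN2, and 8 of the 10 had groups apart. Smooth muscle markers, 6 of 7 tested, summed to 1247 to 2115 CPM and to 738 to 1023 CPM, and TAGLN and CNN1, both actin-associated proteins of smooth and early cardiac muscle, fell. TAGLN was at 41.05, 261 and 164 CPM and at 13.9, 15.8 and 10.5 CPM, wide apart among untreated lines and level among enzyme ones, and fell by 3.65 on the log2 scale (SE 0.43, adjusted p = 5.91e-05). CNN1 was at 185, 304 and 398 CPM and at 58.7, 108 and 109 CPM and fell by 1.80 (adjusted p = 0.0113). CNN1 lost its call without the enzyme TNNI1 or the untreated TNNT2 library (adjusted p up to 0.0902). TAGLN was called without each library in turn.

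Endoderm and liver-type markers were low in the untreated libraries and lower still with the enzyme. Of 15 markers 7 were tested, 3 fell and none rose, and the sum was 135 to 605 CPM untreated and 43.1 to 92.7 CPM with the enzyme. AFP, alpha-fetoprotein, was at 83.9, 18.5 and 9.64 CPM untreated and had no count in any enzyme library, at least 45.5-fold lower with a floor of 3 counts over the enzyme group (136 counts against 0, adjusted p = 0.00167). The untreated TNNI1 library held most of it. APOB, the apolipoprotein of liver and yolk sac endoderm, was at 215, 22.97 and 42.3 CPM and at 6.52, 0 and 5.58 CPM and fell by 4.62 on the log2 scale (SE 0.90, adjusted p = 0.00571). FGB, a fibrinogen chain, was at 48.2, 17.2 and 2.23 CPM and at 0, 0 and 2.09 CPM, a ratio of 28.1-fold (95% counting interval 9.30 to 139) in summed counts, and its lowest untreated library, TNNT2, was nearly level with the enzyme TNNT2 library (adjusted p = 0.0324). FGB lost its call without the enzyme TNNI1 or WT or the untreated TNNI1 library (adjusted p up to 0.181). AFP and APOB were called without each library in turn. APOB lost the call with only these 6 libraries in the fit (adjusted p = 0.0504), and FGB with DESeq2 (adjusted p = 0.33). APOB had a log2 fold change of -4.02 without the enzyme WT library and -3.12 without the untreated TNNI1 library. The part of these cells in the results above was not tested.

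No marker of the remaining cell types was called apart from atrial ones. No endothelial marker (8 of 10 tested), fibroblast marker (8 of 9), epicardial marker (1 of 8), pluripotency marker (6 of 8), neural marker (3 of 9) or paraxial mesoderm marker (3 of 7) was called, and no blood marker passed the filter. NANOG, SOX2 and ZFP42 of the pluripotency list and SOX1, TUBB3, SOX10 and ELAVL3 of the neural list were at 0 in all 6 libraries. Of 6 atrial markers 3 were tested, and NPPA and NR2F2 fell. NR2F2, the nuclear receptor that sets atrial identity, was at 28.6, 37.7 and 55.6 CPM and at 5.71, 7.91 and 17.4 CPM, with groups apart, and fell by 2.07 on the log2 scale (SE 0.57, adjusted p = 0.0456). NR2F2 lost its call without the enzyme TNNI1 or WT or the untreated TNNI1 or TNNT2 library (adjusted p up to 0.211). NR2F2 lost the call with only these 6 libraries in the fit (adjusted p = 0.0683), and NR2F2 with library totals alone (adjusted p = 0.0597). NR2F2 had a log2 fold change of -2.69 without the enzyme TNNT2 library.

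**Figure D3:**
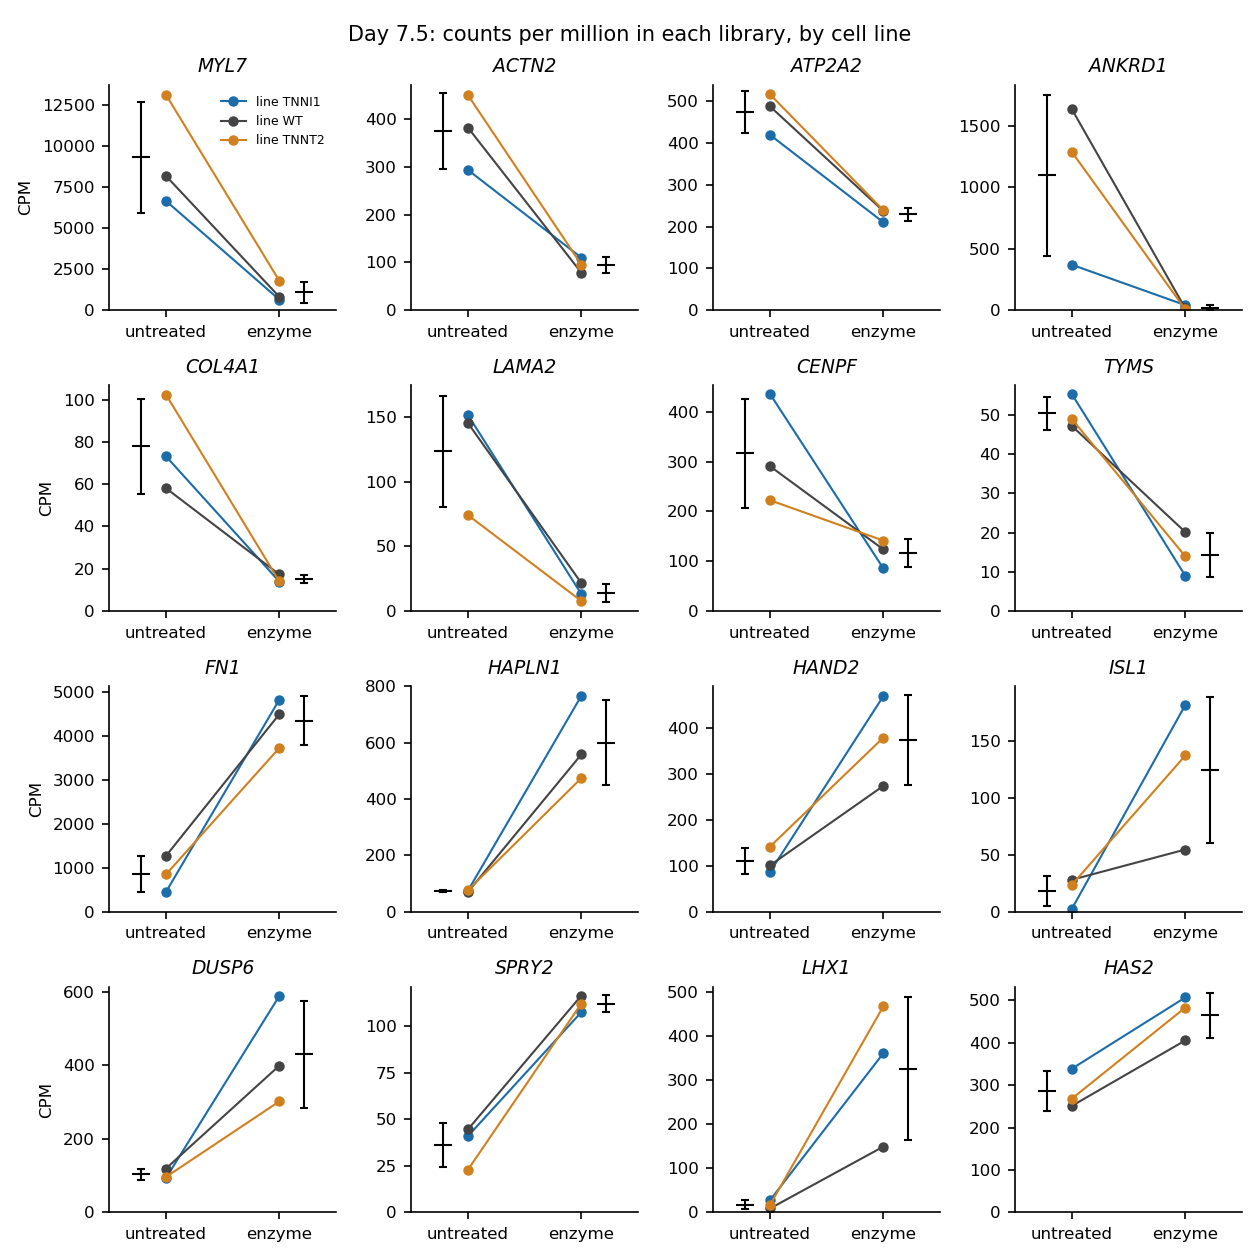
CPM in each of the 6 libraries at day 7.5 for 16 genes, with a line joining the untreated and the enzyme library of each cell line and the mean with its SD (n = 3) beside each group, on axes that start at 0. In all 16 genes the groups are apart, 8 lower and 8 higher with the enzyme, and HAS2 is the 1 gene of the 16 that was not called.

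The largest falls reached genes that the lists do not hold. SYTL5, a synaptotagmin-like protein of vesicle traffic, was at 17.8, 24.9 and 22.3 CPM untreated and had no count in any enzyme library, at least 29.8-fold lower with a floor of 3 counts over the enzyme group (89 counts against 0, adjusted p = 0.000401). CAVIN1, a coat protein of caveolae, was at 40.2, 75.3 and 151 CPM and at 4.08, 0 and 2.79 CPM. Its untreated libraries spread widely and its enzyme libraries stayed near or at 0, and CAVIN1 fell by 5.38 on the log2 scale (SE 0.82, adjusted p = 0.000473). LIMS2, a focal adhesion adaptor that works with integrin-linked kinase, was at 70.5, 59.99 and 179 CPM and at 0, 9.35 and 9.76 CPM, with groups wide apart, and fell by 4.09 on the log2 scale (SE 0.68, adjusted p = 0.00118). SPTB, the erythrocyte and muscle spectrin beta chain, fell by 4.07 (adjusted p = 0.00917) on the log2 scale. RRAD, a small GTPase that restrains calcium channels, went from 8.03, 17.2 and 19.3 CPM to 0, 1.44 and 0.697 CPM, a ratio of 20.8-fold (95% counting interval 6.78 to 103) in summed counts (adjusted p = 0.0405), and the muscle-associated long non-coding RNA LINC01405 differed by 22.1-fold (95% counting interval 7.24 to 109.9) (adjusted p = 0.0396). SPTB lost its call without the enzyme TNNI1 or WT library (adjusted p up to 0.0681), RRAD without any 1 library (adjusted p up to 0.171), and LINC01405 without any 1 library but the untreated WT one (adjusted p up to 0.185). SYTL5, CAVIN1 and LIMS2 were called without each library in turn. SPTB lost the call with only these 6 libraries in the fit (adjusted p = 0.062). CAVIN1 had a log2 fold change of -6.01 without the enzyme TNNI1 library, -4.79 without the enzyme WT library and -4.73 without the untreated TNNT2 library, LIMS2 -3.40 without the untreated TNNT2 library, and SPTB -7.95 without the enzyme TNNT2 library.

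The largest rises were mostly in genes with few or no untreated counts. B3GAT2, a glucuronyltransferase that caps glycan chains in the nervous system, was at 1.78, 0.638 and 0 CPM untreated and at 70.9, 10.1 and 46.7 CPM with the enzyme, a ratio of 55.8-fold (95% counting interval 18.8 to 273) in summed counts (adjusted p = 0.00047). The WT enzyme library was the lowest of its group, and the groups were apart. ITGA2, the collagen-binding integrin alpha chain, was at 1.78, 0 and 1.48 CPM and at 19.6, 8.63 and 34.2 CPM and rose by 4.15 on the log2 scale (SE 0.86, adjusted p = 0.00648). RPH3A, a rabphilin of vesicle traffic, was at 1.78, 0.638 and 4.45 CPM and at 55.4, 14.4 and 148 CPM, with a wide spread between enzyme libraries, and rose by 4.86 (adjusted p = 0.016). SOCS3, the feedback inhibitor of cytokine receptor signalling, differed by 46.8-fold (95% counting interval 12.6 to 392) in summed counts (adjusted p = 0.0456), with the TNNT2 enzyme library low. The phospholipid flippase gene ATP8B4 was at least 7.97-fold higher and LHFPL1, a tetraspan protein, at least 5.98-fold higher against the floor, with 24 and 18 counts over the enzyme group and 0 untreated. The dynein chain DNAH2 differed by 23.9-fold (95% counting interval 6.27 to 203), the fatty acyl reductase FAR2 by 22.9-fold (95% counting interval 7.52 to 114) and SPINDOC, a partner of the histone reader SPIN1, by 17.9-fold (95% counting interval 4.62 to 154). PGA5, a pepsinogen whose reads can be shared with its near-identical copies, rose by 3.72 (adjusted p = 0.00881). RPH3A lost its call without the enzyme TNNT2 or the untreated TNNI1, WT or TNNT2 library (adjusted p up to 0.078), SOCS3, LHFPL1 and SPINDOC without any 1 library but the enzyme TNNT2 one (adjusted p up to 0.205), and ATP8B4 without the enzyme TNNI1 or the untreated TNNI1 or TNNT2 library (adjusted p up to 0.0648). DNAH2 lost its call without the enzyme TNNI1 or the untreated TNNT2 library (adjusted p up to 0.0605), FAR2 without the untreated TNNI1 library (adjusted p = 0.0513), and PGA5 without the enzyme TNNI1 library (adjusted p = 0.0623). B3GAT2 and ITGA2 were called without each library in turn. DNAH2 and PGA5 lost the call with only these 6 libraries in the fit (adjusted p up to 0.0707), and SOCS3 with no filter on low counts (adjusted p = 0.107). ITGA2 had a log2 fold change of 3.49 without the untreated WT library, RPH3A 3.77 without the enzyme TNNT2 library and 5.83 without the untreated TNNT2 library, and PGA5 5.11 without the untreated WT library.

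Among abundant genes outside the lists, several cytoskeletal genes fell. MYL9, the regulatory light chain of non-sarcomeric myosin, was at 1153, 1244 and 2636 CPM and at 204, 283 and 537 CPM, with groups apart, and fell by 2.42 on the log2 scale (SE 0.45, adjusted p = 0.00486). PALLD, palladin, an actin cross-linker of stress fibres and Z-discs, was at 715, 857 and 918 CPM and at 375, 398 and 365 CPM, tight in both groups, and fell by 1.25 on the log2 scale (SE 0.23, adjusted p = 0.00285). AKAP12, a scaffold for protein kinase A, fell by 1.32 (adjusted p = 0.00926) on the log2 scale, and RTN4, the membrane-shaping reticulon also known as Nogo, fell by 0.91 (adjusted p = 0.00453).

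Other abundant genes outside the lists rose. FTL, the ferritin light chain that stores iron, was at 461, 509.9 and 513 CPM untreated and at 1086, 1153 and 1110.4 CPM with the enzyme. The spread in each group was a small fraction of the gap, and FTL rose by 1.06 on the log2 scale (SE 0.17, adjusted p = 0.000721). PEG10, an imprinted gene derived from a retrotransposon, was at 349, 202 and 265 CPM and at 822, 941 and 1162 CPM and rose by 1.73 on the log2 scale (SE 0.24, adjusted p = 0.000137). RGS5, a regulator of G protein signalling, rose by 1.28 (adjusted p = 0.0048), and H3-3B, which codes for the replication-independent histone H3.3, rose by 1.19 (adjusted p = 0.00508). KDELR1, a receptor that retrieves proteins to the endoplasmic reticulum, rose by 0.77 (adjusted p = 0.0436), and the nuclear long non-coding RNA NEAT1 rose by 0.88 (adjusted p = 0.0392). AKAP12 lost its call without the enzyme TNNI1 or the untreated TNNT2 library (adjusted p up to 0.0797), H3-3B without the enzyme TNNI1 library (adjusted p = 0.0711), and KDELR1 without the enzyme TNNI1 or TNNT2 or the untreated TNNI1 or TNNT2 library (adjusted p up to 0.225). NEAT1 lost its call without any 1 library but the enzyme TNNT2 one (adjusted p up to 0.203). MYL9, PALLD, RTN4, FTL, PEG10 and RGS5 were called without each library in turn. RTN4, H3-3B, KDELR1 and NEAT1 lost the call with only these 6 libraries in the fit (adjusted p up to 0.241), and KDELR1 and NEAT1 with RLE factors (adjusted p up to 0.0555).

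The enzyme effect at day 7.5 was set against the effect of the same early enzyme at day 4.5, in 6 libraries of that day that share none with the day 7.5 comparison. At day 4.5, 443 genes (3.48%) were called, 136 risen (1.07%) and 307 fallen (2.41%). Of the 180 genes risen at day 7.5, 158 (87.8%, beside 51.6% of all genes tested) had a positive log2 fold change at day 4.5 and 53 were called higher there. Of the 245 fallen genes, 216 (88.2%, beside 48.4% of all) were negative and 96 were called lower. In all 149 genes were called on both days in the same direction and none in opposite directions. At day 2.5, in 6 further libraries, the early enzyme had 146 calls (1.15%), 32 risen (0.251%) and 114 fallen (0.894%). Of the genes risen at day 7.5, 83 (46.1%, beside 49.9% of all) were positive at day 2.5, 2 were called higher and 7 lower. Of the fallen genes 157 (64.1%, beside 49.6%) were negative, 15 were called lower and none higher. In the sarcomere list 17 of 27 members were called lower at day 4.5, with a median of -3.06. MYL7 had a log2 fold change of -6.78 (adjusted p = 0.000193) at day 4.5, MYOM1 of -5.03 (adjusted p = 0.000141) and TNNC1 of -5.01 (adjusted p = 0.000349). The basement membrane list had 6 fallen members on each day, with a median of -0.81 at day 4.5. The cell cycle list had no call at day 4.5 and a median of 0.02, and CENPF stood at 0.07 (adjusted p = 0.971) and TYMS at 0.26 (adjusted p = 0.847). FN1 was not called at day 4.5, with 0.60 (adjusted p = 0.55), and FTL stood at -0.03 (adjusted p = 0.978).

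The difference between the effects of the days, tested as 1 contrast, passed for 2 of 12748 genes (0.0157%), with 1056 (8.28%) at an unadjusted p under 0.05. Neither a sarcomere nor a cell cycle gene was among them, so the changes of median above are descriptions. A2M, the protease inhibitor alpha-2-macroglobulin, was not called at day 7.5, at 23.2, 31.9 and 20.8 CPM untreated and 18.7, 25.9 and 16.03 CPM with the enzyme, but had a log2 fold change of -7.66 (adjusted p = 0.000147) at day 4.5, where it was at 18.1 ± 8.67 CPM untreated and 0 ± 0 CPM with the enzyme (mean ± SD, n = 3). Its difference of effects was 7.23 (SE 1.13, adjusted p = 0.0353). TUNAR, a long non-coding RNA of neural and cardiac differentiation, was higher with the enzyme at day 4.5, 3.47 (adjusted p = 0.000688), and at 7.14, 10.2 and 6.68 CPM against 2.45, 3.595 and 2.79 CPM at day 7.5, with a difference of -5.01 (SE 0.87, adjusted p = 0.0353). The count was 124 with no filter on low counts, 48 with DESeq2, 10 with the line as a block and 0 with only the 4 groups compared. It was 56 without the day 4.5 enzyme WT library, 18 without the untreated day 7.5 WT library and 0 or 1 without each of the others but the day 7.5 enzyme TNNT2 library, which left 3.

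When the enzyme began was compared through the 3 libraries that received it from day 2.5 instead of day 1.5, again 1 from each line and harvested on day 7.5. MYL7 was at 6197, 1808 and 4083 CPM with the late start, ACTN2 at 251, 95.3 and 215 CPM and ANKRD1 at 437, 82.5 and 141 CPM. In each of these the TNNI1 library stayed within or near the untreated range while the WT library was the lowest of the 3. COL4A1 was at 26.3, 22.1 and 36.7 CPM, FN1 at 913, 3229 and 2440.1 CPM and HAPLN1 at 246, 396 and 426 CPM, each with all 3 lines between the untreated and the early-start values of their own line. HAND2 was at 165, 141 and 221 CPM and ISL1 at 12.5, 43.6 and 41.3 CPM, HAND2 nearer to untreated in every line and ISL1 in the TNNI1 and TNNT2 lines. DUSP6 was at 143, 318 and 284 CPM and SPRY2 at 83.7, 113 and 136 CPM, where SPRY2 was close to or above the early-start level in the WT and TNNT2 lines.

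Against the untreated libraries, which both comparisons share, the late start had 84 calls (0.659%), 44 risen (0.345%) and 40 fallen (0.314%), and gave log2 fold changes of -1.26 (adjusted p = 0.409) for MYL7, -1.52 (adjusted p = 0.0303) for COL4A1 and 2.20 (adjusted p = 4.85e-05) for HAPLN1. Tested directly, early against late start, 1 gene of 12748 (0.00784%) passed, and 719 (5.64%) had an unadjusted p under 0.05. That gene was GPC3, at 6.23, 11.4 and 12.4 CPM with the late start, below every untreated library, and at 125, 87.01 and 99.7 CPM with the early start, above every untreated library, a log2 difference of 3.31 (SE 0.43, adjusted p = 0.000515). Its call held without each of the 6 libraries in turn and in every other alternative run, where the number of calls was 80 with no filter on low counts, 39 with DESeq2, 13 with the line as a block and 4 without the early-start WT library.

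**Figure D4:**
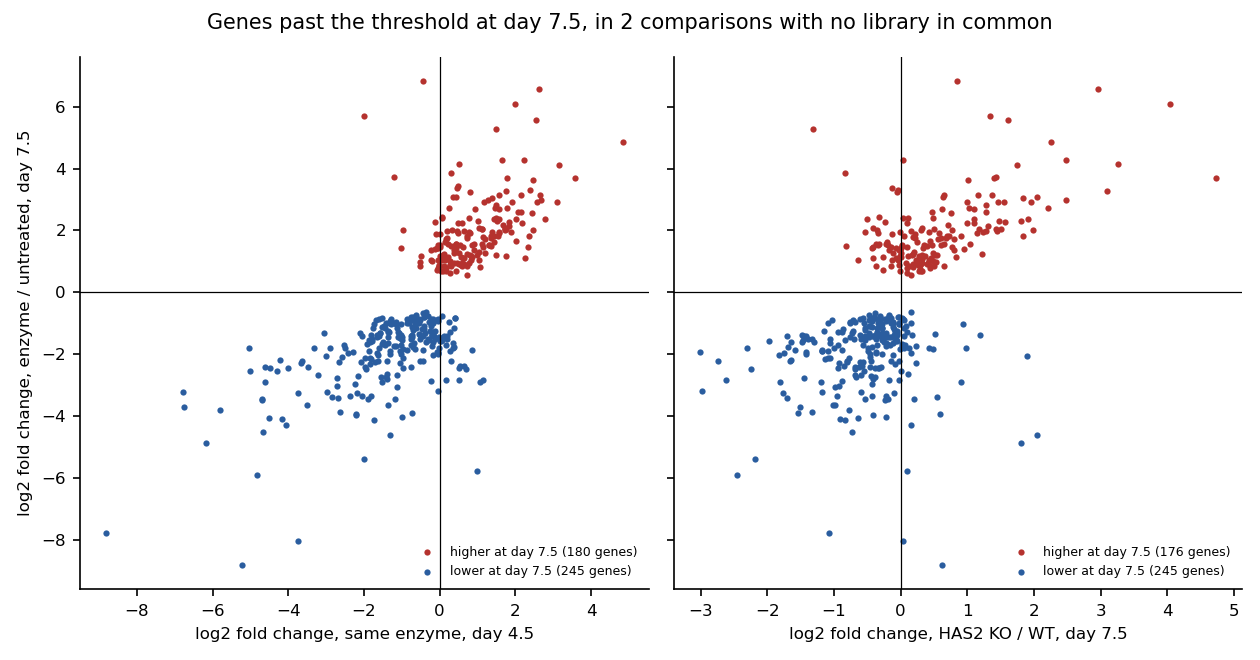
Log2 fold change at day 7.5 (early enzyme over untreated) of the called genes, against that of the same enzyme at day 4.5 (left) and of HAS2 knockout over wild type at day 7.5 (right), with risen genes in red and fallen genes in blue. Most risen genes lie right of 0 and most fallen genes left of 0 in both panels, with a smaller spread for the knockout.

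The enzyme effect was set beside that of removing the synthase. The series also holds 3 libraries of HAS2 knockout cardioids, 2 from clone cl4 and 1 from clone cl14, and 3 of wild type at day 7.5, none shared with the enzyme comparison. HAS2 RNA was at 271 ± 88.5 CPM in wild type and 315 ± 56.3 CPM in the knockout (mean ± SD, n = 3). Where HAS2 was cut is not given in the sources used here, and a count of 3′ ends does not read a deletion elsewhere in the gene, so this checks nothing about the labels. In the knockout comparison the test called 48 of 13797 genes (0.348%), 8 risen (0.058%) and 40 fallen (0.29%). Of the genes risen with the enzyme, 134 of the 176 tested there (76.1%, beside 48.6% of all) were positive in the knockout, and of the 245 fallen 208 (84.9%, beside 51.2%) were negative. In all 13 genes were called in both in the same direction, 2 risen and 11 fallen, and none in opposite directions. LHX1 was among them, at 1.74 (adjusted p = 0.00349) in the knockout, and CCNA2 and CCNB2 also, at -3.01 (adjusted p = 1.63e-08) and -2.74 (adjusted p = 3.11e-05). The cell cycle list had 10 fallen members and a median of -1.53 in the knockout, and the sarcomere list none, with a median of -0.25. MYL7 stood at -0.59 (adjusted p = 1) in the knockout, ANKRD1 at -2.46 (adjusted p = 0.082), COL4A1 at -0.68 (adjusted p = 0.886), HAPLN1 at 1.46 (adjusted p = 0.247) and DUSP6 at -0.00 (adjusted p = 1).

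The enzyme effect minus the knockout effect, tested as 1 contrast over both arms, passed for 13 of 14047 genes (0.0925%), 4 higher (0.0285%) and 9 lower (0.0641%), with 1035 (7.37%) at an unadjusted p under 0.05. No gene of the sarcomere or cell cycle list was among them, and 3 endoderm markers were. AFP had a log2 fold change of 0.63 (adjusted p = 1) in the knockout and FGB of 1.81 (adjusted p = 0.793), with differences of effects of -9.64 (SE 1.66, adjusted p = 0.00278) and -6.69 (SE 1.43, adjusted p = 0.04). SYTL5, absent from the enzyme libraries, stood at 0.04 (adjusted p = 1) in the knockout, a difference of -8.31 (SE 1.62, adjusted p = 0.0141). FAM89A, a protein of little known function, rose with the enzyme from 6.25, 7.02 and 1.48 CPM to 71.7, 51.1 and 37.6 CPM and stood at -0.04 (adjusted p = 1) in the knockout, a difference of 3.33 (SE 0.74, adjusted p = 0.04). JUNB, an AP-1 factor, was at 1.78, 5.11 and 1.48 CPM and at 16.3, 10.1 and 2.79 CPM with the enzyme, and was not called. In the knockout JUNB fell, -2.72 (adjusted p = 0.024), a difference of 4.30 (SE 0.96, adjusted p = 0.04). PCOLCE, which speeds the trimming of procollagen, was at 7.14, 4.47 and 9.64 CPM and at 46.5, 14.4 and 28.6 CPM (log2 fold change 1.95, SE 0.58, adjusted p = 0.066) and at -1.42 (adjusted p = 0.392) in the knockout, a difference of 3.36 (SE 0.75, adjusted p = 0.042). The count was 142 with no filter on low counts. It was 35 without the untreated WT library, 3 to 8 without any other untreated or wild-type library, without the enzyme TNNI1 or WT library, or without the cl14 or the cl4_R3 library, and 11 and 17 without the cl4_R2 and enzyme TNNT2 libraries.

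**Figure D5:**
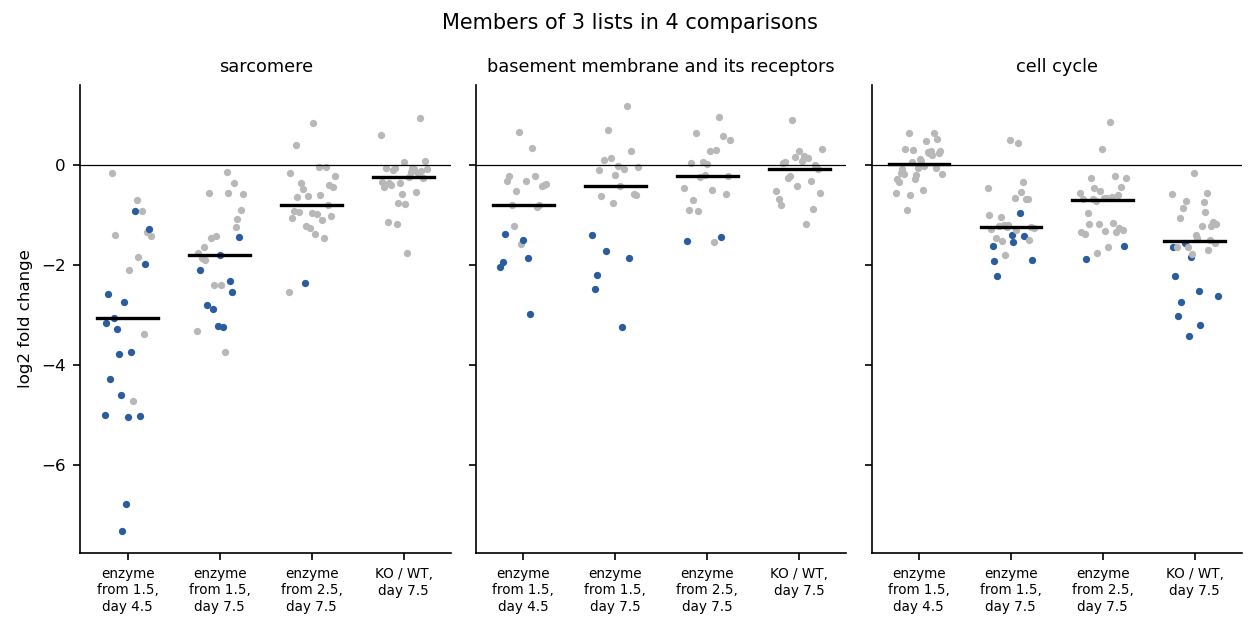
Log2 fold change of each tested member of the sarcomere, basement membrane and cell cycle lists in 4 comparisons, with called fallen members in blue, the others in grey and the median as a bar. The sarcomere median runs from -3.06 (early enzyme, day 4.5) to -0.25 (knockout, day 7.5), and the cell cycle median from 0.02 to -1.53 in the same 2 comparisons. The early and late enzyme at day 7.5 share their untreated libraries.

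The called genes were last placed on the course of normal development in the 15 wild-type libraries of the knockout arm taken on days 2.5, 4.5 and 7.5, a reading chosen after the data were seen. Between days 4.5 and 7.5 in wild type, 372 genes were called (2.7%), 173 risen (1.25%) and 199 fallen (1.44%). Of the genes risen with the enzyme, 137 of the 176 tested there (77.8%, beside 54.1% of all genes tested) had a negative change over those days. Among these 176, 14 were called lower and 1 higher. Of the fallen genes 163 of 245 (66.5%, beside 45.8%) had a positive one, and 38 were called higher and 7 lower. Between days 2.5 and 7.5, 139 of the 245 fallen genes were called higher in wild type, beside 18.1% of all genes tested there, and 49 were called lower, beside 17.2%. Of the 176 risen genes, 36 were called higher and 55 lower over those days.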

How the data were processed

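RNA of 8 pooled cardioids per library was sequenced from 3′ ends (QuantSeq 3′ mRNA-Seq FWD, single end, NovaSeq), per the labels' protocols. The authors deposited 1 table of raw counts per gene, made with featureCounts of Subread 1.6.2 on hg38, per the submitters' processing notes and the file headers. The aligner, annotation release, strand setting, and treatment of multimapping reads and molecular identifiers are not given in the sources used here. The table has 58735 gene IDs, all found in GENCODE 29. It also has 4 columns that match no listed sample and were not used here.

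CPM were computed from the deposited counts and library totals. Fits used edgeR 4.0.16 in R 4.3.3: filterByExpr with a minimum count of 10, TMM factors, robust quasi-likelihood dispersions, 1 mean per group over the 24 libraries of the enzyme arm (16 residual degrees of freedom; all 65 libraries where the knockout enters) and Benjamini-Hochberg adjustment across every tested gene, a gene being called at an adjusted p under 0.05. The fit was also run on simulated counts that held no differences between days. That run does not measure the errors made on these data. Bounds use a floor of 3 counts over a group, and intervals of 95% cover counting error only. The 1120719 to 1567012 counts per library limit what can be seen of low genes.

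The members and the gene lists were chosen with earlier results of these data known. Text names HAS2, the 12 highest and 12 lowest called genes with groups apart, the 8 most abundant called in each direction, the 4 smallest p of each list and the 3 extremes either way of each other contrast. One gene that this rule selects is not reported here. Other called list members are named as well, chosen after their values were seen. Lines pair the samples by label: residuals of the same line correlated at 0.0325 for TNNI1, 0.366 for WT and 0.467 for TNNT2. Between different lines they correlated at -0.495 to 0.253, and untreated TNNI1 with enzyme TNNT2 at 0.0386, so the TNNI1 pair did not stand out. Alternatives were RLE factors, no filter, DESeq2 1.42.0, the line as a block, only the groups compared, leaving out each library, and library totals alone. Upstream sequences come from RefSeq, GRCh38.p14.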

Additional observations from a re-analysis of the deposited data

Results flagged for a closer look

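In 9 genes the early enzyme's effect at day 7.5 differed from another effect by a test of the difference itself (edgeR's quasi-likelihood test, Benjamini-Hochberg adjustment). Against the effect of the same enzyme at day 4.5, A2M differed by 7.23 on the log2 scale (SE 1.13, adjusted p = 0.0353), which was called lower with the enzyme at day 4.5 and not called at day 7.5, and TUNAR by -5.01 (SE 0.87, adjusted p = 0.0353), with opposite signs on the 2 days. Against the late start, GPC3 differed by 3.31 (SE 0.43, adjusted p = 0.000515), above untreated with the early start and below it with the late start in all 3 lines. Against the effect of HAS2 knockout, AFP differed by -9.64 (SE 1.66, adjusted p = 0.00278), SYTL5 by -8.31 (SE 1.62, adjusted p = 0.0141) and FGB by -6.69 (SE 1.43, adjusted p = 0.04). The first 2 of these had no count in any of the 3 enzyme libraries, so their fitted differences are no bounds. PCOLCE differed by 3.36 (SE 0.75, adjusted p = 0.042), JUNB by 4.30 (SE 0.96, adjusted p = 0.04) and FAM89A by 3.33 (SE 0.74, adjusted p = 0.04). All 3 were positive with the enzyme, where FAM89A was called and PCOLCE and JUNB were not. In the knockout JUNB was called lower, and PCOLCE and FAM89A were not called.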

How the results depend on the processing

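The number of genes called between early enzyme and untreated at day 7.5, 425, was 713 with no filter on low counts, 646 with DESeq2 and 173 with only the groups compared, and 145 to 675 without 1 library. RLE factors gave 426, library totals alone (added after the data were seen) 463, with 398 and 382 genes shared. With the line as a replicate block it was 564, of which 423 are shared. The block also gave 10 calls for the difference from day 4.5, 13 for early against late start and 15 for the difference from the knockout, beside 2, 1 and 13. For the difference from day 4.5 no filter gave 124, DESeq2 48, only the groups compared 0 and leaving out 1 library 0 to 56. For early against late start these were 80 with no filter, 39 with DESeq2 and 1 to 4 without 1 library. For the difference from the knockout no filter gave 142 and leaving out 1 library 3 to 35.

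Of the 425 calls, 109 were kept without each of the 6 libraries in turn. Over 1500 values of the genes chosen by the naming rule, 159 lost the call and 39 gained one, and 0 of the called genes turned direction. Some of the genes that were not called did change sign between alternatives. Among the called genes named above the block took the call from BMP4 (adjusted p = 0.0507), and it gave one to 7 of the others: FABP3, HEY2, HS6ST2, PCOLCE, PKP2, SLC2A1 and XIRP1. Of 624 counts of called list members, run after the data were seen, 92 moved over 1.5 times. Where a library was left out its arm had 2 libraries, and the spread was pooled over the other groups. With 3 libraries a group and at most 1567012 counts each, a gene that was not called is not shown to be equal between groups.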

Other observations

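Genes outside the lists were grouped after their values were seen, so the counts below are descriptions with no test of the group. Over all genes tested, 1.41% rose and 1.92% fell. Of 20 genes of sterol synthesis 19 were tested at day 7.5, and MVD, FDPS, SQLE, MSMO1 and NSDHL, enzymes from mevalonate to the late steps of cholesterol, were lower with the enzyme, while SC5D, a late desaturase, was higher, with a median log2 fold change of -0.74 over the 19. SQLE, squalene epoxidase, was at 202, 183 and 107 CPM untreated and at 85.6, 105 and 85.7 CPM with the enzyme and fell by 0.94 (adjusted p = 0.0279) on the log2 scale. FDPS, which makes farnesyl diphosphate, was at 145, 144 and 172 CPM and at 73.4, 77.7 and 105 CPM and fell by 0.96 (adjusted p = 0.0111). MSMO1, a sterol oxidase, fell by 0.84 (adjusted p = 0.0456), and SC5D rose by 1.56 (adjusted p = 0.00556). In the dystrophin complex, which ties the actin cytoskeleton of muscle to laminin, 11 of 14 genes were tested and DMD, UTRN and SSPN fell. None rose, and the median was -0.38. SNTB2 (0.59), SGCB (0.58), DTNB (0.21), DAG1 (0.10) and SGCE (0.08) had positive log2 fold changes and were not called. DMD, dystrophin, was at 209, 169.7 and 231 CPM and at 43.2, 28.8 and 52.3 CPM and fell by 2.41 (adjusted p = 0.000107), and UTRN, its homologue utrophin, fell by 0.85 (adjusted p = 0.0451). SQLE lost its call without any 1 library but the untreated TNNT2 one (adjusted p up to 0.15), FDPS without the enzyme TNNI1 or WT or the untreated TNNT2 library (adjusted p up to 0.0859), and MSMO1 without any 1 library but the untreated WT one (adjusted p up to 0.176). MVD lost its call without the enzyme TNNI1 or the untreated TNNI1 or TNNT2 library (adjusted p up to 0.196), NSDHL without any 1 library but the enzyme TNNT2 one (adjusted p up to 0.231), and SC5D without the enzyme TNNI1 library (adjusted p = 0.059). UTRN and SSPN lost their calls without the enzyme TNNI1 or WT or the untreated TNNI1 or TNNT2 library (adjusted p up to 0.226). DMD was called without each library in turn. SQLE, FDPS, MSMO1, MVD, NSDHL, SC5D and UTRN lost the call with only these 6 libraries in the fit (adjusted p up to 0.244), and MSMO1, NSDHL and UTRN with library totals alone (adjusted p up to 0.0769).

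Of 12 genes of iron uptake and storage 9 were tested, 1 rose, 1 fell and the median was -0.32. TFRC, the transferrin receptor, was at 43.7, 58.7 and 43.03 CPM untreated and at 31.8, 22.3 and 20.9 CPM with the enzyme and fell by 1.08 (adjusted p = 0.0436), whereas FTL rose, as given above. Among 8 tested of 14 genes that receive Hedgehog signals, the co-receptors BOC and CDON rose, none fell and the median was 0.32. BOC was at 0.892, 4.47 and 5.93 CPM and at 16.3, 20.1 and 16.7 CPM and rose by 2.04 (adjusted p = 0.0142), and CDON at 4.46, 5.11 and 0.742 CPM and at 22.8, 10.8 and 10.5 CPM and rose by 1.95 (adjusted p = 0.0436). TFRC lost its call without any 1 library (adjusted p up to 0.152), BOC without the enzyme WT or the untreated TNNI1 library (adjusted p up to 0.0824), and CDON without the enzyme TNNI1 or WT or the untreated TNNI1 or TNNT2 library (adjusted p up to 0.253). TFRC, BOC and CDON lost the call with only these 6 libraries in the fit (adjusted p up to 0.239), CDON with no filter on low counts (adjusted p = 0.0556), and TFRC with library totals alone (adjusted p = 0.0727).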
